A study of Caenorhabditis elegans with 10 samples.

Results

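The MATH and BATH domain genes of Caenorhabditis elegans were followed across 10 libraries of polyadenylated RNA from whole nematodes. The members were the gene symbols math or bath with a number, other than math-33, in the annotation of the deposited table. There were 82 of them, 47 math genes and 35 bath genes, among 40857 gene symbols. Where a symbol had several transcripts, as 16 members did, the one with the highest mean level stood for the gene. Levels are FPKM, fragments per kilobase of transcript and per M reads, as deposited, and differences are on log2(FPKM + 1), on which the change of a weakly expressed gene comes out too small.

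There were 5 genotypes. daf-2(e1370);math-33(tm3561) carries a temperature-sensitive allele of the insulin/IGF-1 receptor together with the math-33 mutation, daf-2(e1370) carries the receptor allele alone, and daf-16(mu86);daf-2(e1370) also lacks the FOXO factor DAF-16. The receptor allele is thus shared by all 3 of these strains. math-33(tm3561) and N2, the wild type, have an intact receptor. Each genotype was shifted as L3 or L4 larvae to 25 °C for 22 hr, or held throughout at 15 °C. The worms were semi-synchronized and labelled L4 and preadult, with about 3000 per sample. There was 1 library for each of the 10 groups, so a single pair of libraries gives no p-value and cannot be checked against replicates; a fold between them carries an exact 95% interval for a ratio of 2 counts of read pairs. These intervals cover counting error only. A limma model with genotype and temperature terms, fitted to the 16085 genes that reached 1 FPKM in at least 2 libraries (the expression filter), gave adjusted p-values on 4 residual degrees of freedom. The spread it uses comes from genotypes and temperatures, and no replicate cultures enter it.

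The MATH domain is a fold that holds protein partners, and the BTB domain, which bath genes encode beside it, binds the scaffold CUL-3. A protein with both can bring a substrate to a CUL-3 ubiquitin ligase. In the worm MEL-26 does so for MEI-1, a subunit of the microtubule-severing enzyme katanin, which builds the meiotic spindle and must be removed before the embryo first divides. The math genes encode MATH domains without that BTB partner, and for most of them no role is established. MATH-33, left out of the family here because its gene is the one mutated, is a deubiquitylating enzyme with a MATH domain. The family is large in Caenorhabditis, and its copies are known to be gained and lost quickly.

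The libraries held 25.21 to 35.22 M reads, recovered from the steps between low values, which is 12.61 to 17.61 M pairs. A count of 0 allows a level of up to 0.17 to 0.238 FPKM for a transcript of 1000 bases. math-33 itself stood at 13.9 to 15.9 FPKM in the 4 libraries of math-33 mutant strains, against 59.8 to 79.3 FPKM in the 6 others, as the labels require. Values per transcript do not show which exons these reads came from. Stage and tissue markers were uneven between the libraries. The summed level of 41 sperm genes, none of them at 0 in all libraries, was 3736 and 1610 FPKM at 25 and 15 °C in daf-2;math-33, against 774.7 and 451.6 FPKM in daf-2. It was 6930 and 2798 FPKM in math-33, against 3612 and 581.8 FPKM in N2, and 1151 and 591.4 FPKM in daf-16;daf-2. The summed level of 20 molting genes was 544.7 FPKM in math-33 at 25 °C and 2066 to 3648 FPKM elsewhere, so that library stood apart. Of the markers of whole-worm tissues, 7 of 8 intestinal, 10 of 10 neuronal and 14 of 14 germline genes were found in the table and passed the expression filter. None of them was called by limma for loss of math-33. At 25 °C against 15 °C, limma called the intestinal genes asp-1, cpr-1 and elt-2 and the neuronal genes rab-3, ric-4 and unc-18 lower, the germline genes glh-2, pgl-3, syp-1 and syp-2 higher, and 0 of 20 molting genes. In whole worms, fewer cells of a type and less RNA per cell cannot be told apart.

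Most of the family sits in 1 place. Of the 82 members 71 are on chromosome II, 68 of them between 1 and 4 Mb in the coordinates of the table (build ce10), while 4 are on chromosome III, 3 on I, 2 on V, 1 on IV and 1 on X. All 82 are labelled protein-coding in the table, but the RefSeq annotation of WBcel235, used only for names, strands, exon numbers and gene order, now calls 12 of them pseudogenes, 11 math genes and bath-23. It also renames bath-43 as spop-1, after the human CUL3 adaptor SPOP. No other named gene of the table with a mean above 0.012 FPKM overlaps a member that passed the filter.

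As a group the bath genes stood at higher levels than the math genes in these libraries. Of the 35 bath genes 28 passed the filter, against 25 of the 47 math genes, so 53 members (64.6%) passed, beside 39.4% of all symbols and 73.1% of the 20322 protein-coding ones. The median of the mean level was 3.94 FPKM over all 35 bath genes and 0.683 FPKM over all 47 math genes, beside 4.98 FPKM over protein-coding symbols. Means of at least 10 FPKM were reached by 14 members, of which 11 were bath genes. Means below 0.1 FPKM were found for 20 members, of which 18 were math genes, and math-7, math-13, math-16 and math-17 were listed at 0 in all 10 libraries. The 9 bath genes away from chromosome II had a median of 10.3 FPKM, against 3.83 FPKM for the 26 on it.

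The most abundant member was bath-42 (chromosome III, 8161801 to 8163261, minus strand), with 56.2 and 45.9 FPKM at 25 and 15 °C in daf-2;math-33, 40.9 and 33.2 FPKM in daf-2, 46.9 and 42.5 FPKM in daf-16;daf-2, 88.2 and 73.2 FPKM in math-33, and 69.9 and 38.9 FPKM in N2. It was followed, in order of mean, by bath-40 at 38.5 FPKM, bath-43 at 35.3 FPKM, bath-41 at 30.1 FPKM and bath-44, whose libraries ranged from 19.9 to 45.1 FPKM. Neighbours in this order overlapped: the 10 libraries of bath-40 ranged from 23.5 to 51.9 FPKM, those of bath-43 from 28.6 to 44.3 FPKM and those of bath-41 from 20.8 to 51.8 FPKM. In these 5 genes the highest library stood at 1.55 (bath-43) to 2.66 (bath-42) times the lowest. The 3 math genes with means of at least 10 FPKM were math-22 at 29.8, math-3 at 21.1 and math-20 at 16.5 FPKM. Their highest libraries stood at 1.77 to 2.79 times their lowest. The other bath genes of that level were bath-30, bath-2, bath-38, bath-5, bath-29 and bath-15, with means of 23.9, 23.1, 13.2, 11.7, 10.8 and 10.3 FPKM.

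**Figure D1:**
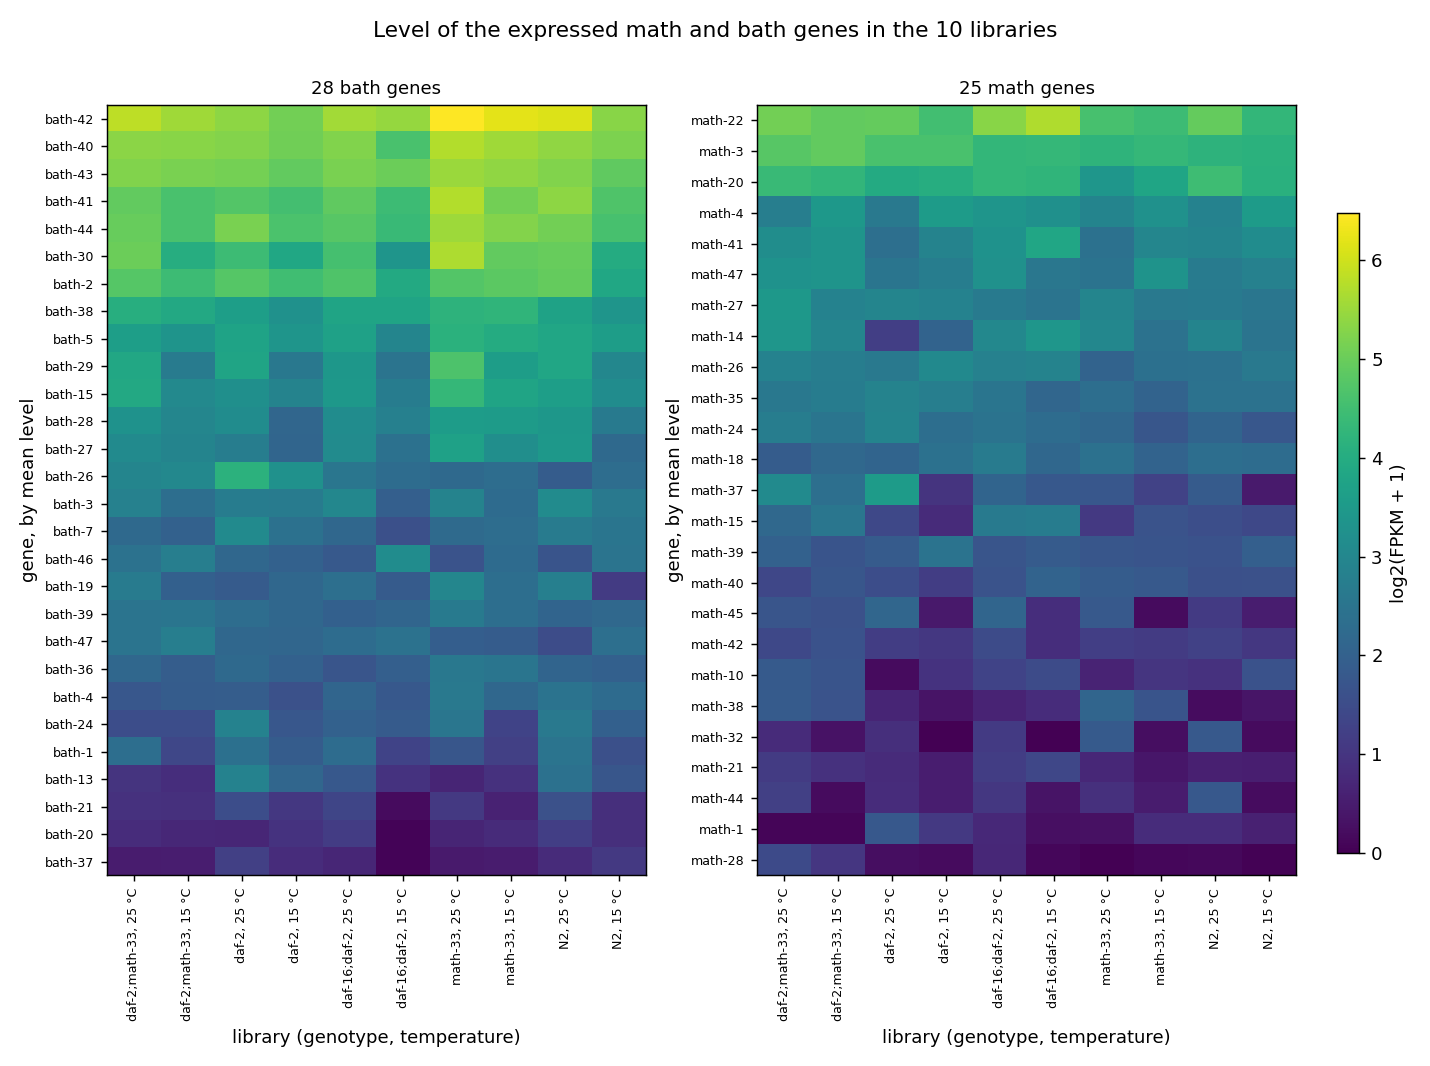
Level of the 53 members that passed the filter, as log2(FPKM + 1), by gene (rows, ordered by mean, 28 bath genes left and 25 math genes right) and by library (columns, genotype and temperature). bath-42, at 33.2 to 88.2 FPKM, heads the bath genes, and math-22, math-3 and math-20 are the 3 math genes with means of at least 10 FPKM.

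Silence and expression stand side by side in the chromosome II cluster. The run math-11, math-13, math-16, math-17, math-5, math-6, math-7, math-8 and math-9, 9 neighbouring members from 1874281 to 1890787, reached no more than 0.296 FPKM in any library. Just beside it lie math-15, math-14 and math-10, with means of 2.87, 6.01 and 1.36 FPKM. math-22, with 18.4 to 51.4 FPKM, lies between math-23, whose mean was 0.0312 FPKM, and math-30, whose mean was 0.0489 FPKM. Of the 12 annotated pseudogenes 4 passed the filter, math-27, math-32, math-35 and math-47, and math-47 averaged 6.75 FPKM. The sources used here do not say how reads shared by near-identical genes were assigned, so levels of close copies are uncertain.

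Members were called neighbours when no other named gene lay between them in the RefSeq order, which gave 36 pairs with 50 members. Of these pairs 22 had both genes on 1 strand, 18 had both genes past the filter and 6 had only 1. Over the 10 libraries the median Pearson correlation of the 18 pairs was 0.43, beside 0.10 over all 1378 pairs of members past the filter. All points share the same 10 libraries, and reads shared between copies would also raise this value. The pairs bath-1 and bath-3 (r = 0.83), bath-28 and bath-30 (r = 0.81) and math-14 and math-10 (r = 0.71) varied most alike, and math-40 and math-39 varied in opposite ways (r = -0.69).

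For loss of math-33, averaged over the intact and the daf-2 background, limma called bath-30 and math-38 higher and bath-13 lower. These 3 of 53 members stand beside 3.37% of all genes called higher and 0.578% called lower. math-38 reached 1 FPKM only in math-33 mutant libraries and bath-13 only in libraries with math-33 intact, so both entered the test through the libraries where they are high, and their calls and the count of 3 give no support of their own. The median difference was 0.22 for the bath genes and 0.18 for the math genes, against 0.06 for all genes. Without adjustment 26.4% of the members and 21.4% of all genes had p under 0.05.

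math-38 (chromosome II, 1577485 to 1579979, minus strand, 5 exons) had 2.65 and 2.13 FPKM at 25 and 15 °C in daf-2;math-33, against 0.585 and 0.259 FPKM in daf-2. It had 3.33 and 2.20 FPKM in math-33, against 0.164 and 0.287 FPKM in N2, and 0.563 and 0.778 FPKM in daf-16;daf-2. All 4 libraries of math-33 mutants lay above all 6 others. At 25 °C its level in daf-2;math-33 was 4.52-fold that in daf-2 (95% counting interval 2.37 to 9.36) and 20.3-fold higher in math-33 than in N2 (6.6 to 99.99, on only 3 pairs in N2). At 15 °C the folds were 8.24 (3.52 to 24.1) and 7.66 (3.16 to 22.0). Over both backgrounds the difference was 1.43 (SE 0.21, limma adjusted p = 0.0286), for a gene that passed the filter through the 4 mutant libraries alone. No role is known for math-38.

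bath-13 (chromosome II, 2520970 to 2522049, minus strand, 5 exons) went the other way. It had 0.968 and 0.790 FPKM at 25 and 15 °C in daf-2;math-33, against 6.31 and 3.41 FPKM in daf-2. It had 0.605 and 0.881 FPKM in math-33, against 4.37 and 2.31 FPKM in N2. The 4 math-33 mutant libraries lay below the daf-2 and N2 libraries, but the daf-16;daf-2 library at 15 °C, with 0.919 FPKM, lay among them, and that at 25 °C had 2.43 FPKM. It was 6.52 times lower in daf-2;math-33 than in daf-2 at 25 °C (interval 3.57 to 13.2) and 7.22 times lower in math-33 than in N2 (3.31 to 15.6). At 15 °C it was 4.31 (2.17 to 9.50) and 2.62 (1.26 to 5.95) times lower. The difference over both backgrounds was -1.44 (SE 0.24, limma adjusted p = 0.0342), for a gene that passed the filter through 5 of the 6 libraries with math-33 intact.

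bath-30 (chromosome II, 3345292 to 3346374, minus strand) had 31.7 and 15.5 FPKM at 25 and 15 °C in daf-2;math-33, against 20.7 and 13.4 FPKM in daf-2. It had 50.5 and 29.5 FPKM in math-33, against 30.4 and 14.8 FPKM in N2, and 22.6 and 9.39 FPKM in daf-16;daf-2. At each temperature both mutants were above the strain with math-33 intact, but across temperatures the 2 sets of libraries overlap. The difference over both backgrounds was 0.61 (SE 0.13, limma adjusted p = 0.0491). In this contrast 29 of the 41 sperm genes and 3 of the 20 oocyte genes were also called higher; their part in the result was not tested. bath-38 had 15.8 and 13.98 FPKM in daf-2;math-33 against 11.4 and 8.74 FPKM in daf-2, and 17.2 and 17.9 FPKM in math-33 against 12.3 and 9.46 FPKM in N2. Its 4 mutant libraries lay above the other 6, daf-16;daf-2 at 12.8 and 12.7 FPKM included, but it missed the threshold (difference 0.59, limma adjusted p = 0.0512).

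The 3 calls depended on which libraries were fitted, while the differences kept their sign. Over the alternatives they ranged from 1.22 to 2.73 for math-38, from -2.13 to -1.23 for bath-13 and from 0.48 to 0.71 for bath-30. A fit without 1 library leaves 1 genotype with a single library, and in most such fits fewer of all genes were called too. Without the N2 library at 25 °C 2 members were called, math-38 and bath-42, without the math-33 library at 15 °C 1, bath-13, and without any 1 of the other 8 libraries none. Median centring left math-38 higher and bath-13 lower, and quantile normalization left bath-13 lower.

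**Figure D2:**
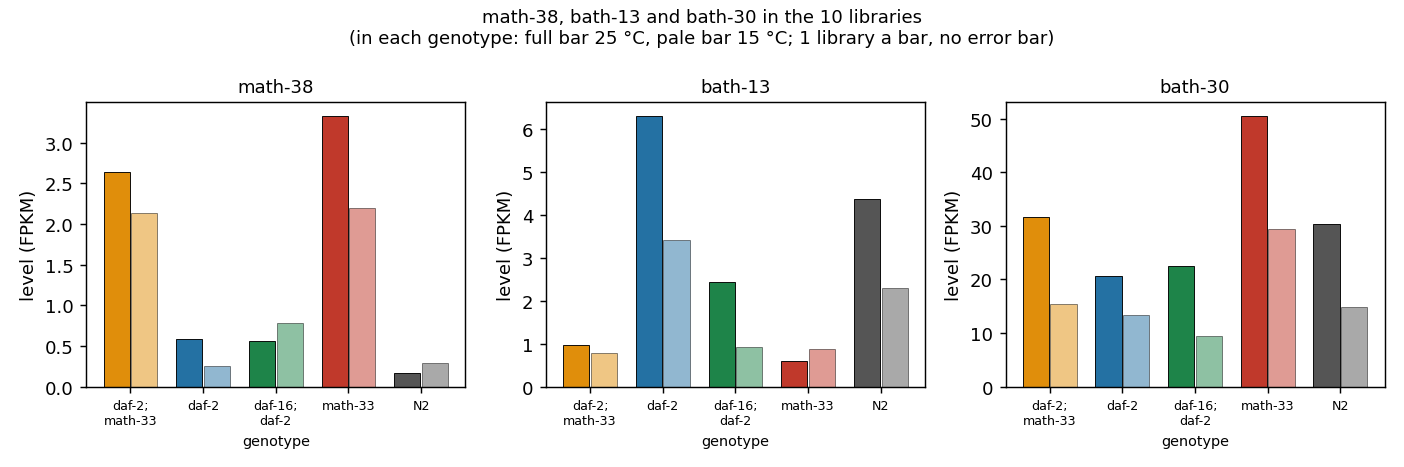
Level (FPKM, axes from 0) of math-38, bath-13 and bath-30 in each genotype, full bars at 25 °C and pale bars at 15 °C, with 1 library a bar. math-38 stands at 2.13 to 3.33 FPKM in the 4 libraries of math-33 mutants and at 0.164 to 0.778 FPKM in the others, and bath-13 at 0.605 to 0.968 FPKM in the mutants.

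In the receptor mutant alone, no member passed the limma threshold between daf-2;math-33 and daf-2, beside 0% of all genes called higher and 0.0124% lower. At an unadjusted p under 0.05, 8 members were higher and 3 lower, 20.8% of the members beside 15% of all genes. At 25 °C, 4 of the 53 members stood above daf-2 by 1 log2 unit or more in daf-2;math-33 and 4 stood below it, beside 11% and 5.13% of all genes. The higher ones were all math genes, math-14, math-10, math-28 and math-38, and of the lower ones 3 were bath genes, bath-13, bath-24 and bath-26, with math-1 the other. At 15 °C, 4 math genes were higher, math-15, math-37, math-38 and math-45, and bath-13 was lower, beside 8.8% and 1.97% of all genes. Of the members counted, math-28 and math-38 reached 1 FPKM only in math-33 mutant libraries, and bath-13 and math-1 only in libraries with math-33 intact. Their places in these counts, and in the split between math and bath genes, give no support. Of the genes past 1 log2 unit, 68.1% were higher at 25 °C and 81.7% at 15 °C; the split was 57.4% and 68.2% after median centring, and 56.3% and 59.6% after quantile normalization.

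math-14 had 9.54 and 6.66 FPKM at 25 and 15 °C in daf-2;math-33, against 1.31 and 3.20 FPKM in daf-2, a fold of 7.28 (4.33 to 12.9) at 25 °C and of 2.08 (1.43 to 3.05) at 15 °C. Its neighbour math-15 had 3.56 and 4.86 FPKM in daf-2;math-33, against 1.63 and 0.737 FPKM in daf-2, with folds of 2.19 (1.28 to 3.75) and 6.59 (3.62 to 14.6). The next gene, math-10, had 2.55 and 2.19 FPKM in daf-2;math-33, against 0.139 and 0.921 FPKM in daf-2; the lowest of these levels rests on 2 pairs, and the fold at 25 °C has an interval of 4.62 to 155.8. All 3 neighbours were above daf-2 at both temperatures, by 1.53, 1.27 and 1.19 over both, with limma adjusted p of 0.16, 0.164 and 0.173.

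math-28 was highest in the double mutant, with 1.75 and 1.047 FPKM at 25 and 15 °C in daf-2;math-33, against 0.177 and 0.131 FPKM in daf-2. It had 0.651 and 0.091 FPKM in daf-16;daf-2, and at most 0.1 FPKM in the 4 math-33 and N2 libraries. math-1 had 0.065 and 0.064 FPKM in daf-2;math-33, about 1 read in each library, against 2.42 and 1.12 FPKM in daf-2. Both genes passed the filter through 2 libraries of 1 genotype, so their being high there is part of how they entered the test.

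bath-26 had 6.73 and 7.08 FPKM at 25 and 15 °C in daf-2;math-33, against 16.8 and 8.71 FPKM in daf-2, and was 2.51 times lower at 25 °C (interval 1.95 to 3.23). bath-24 had 1.91 and 1.87 FPKM in daf-2;math-33, against 6.34 and 2.39 FPKM in daf-2, and was 3.33 times lower at 25 °C (1.999 to 5.88). bath-7 had 3.63 and 3.003 FPKM in daf-2;math-33, against 7.52 and 4.32 FPKM in daf-2. In these 3 genes the daf-2 library at 25 °C was the highest of all 10. math-41 was higher instead, with 8.01 and 9.27 FPKM in daf-2;math-33 and 4.13 and 6.47 FPKM in daf-2.

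With an intact receptor, no member passed the threshold between math-33 and N2, beside 0.348% of all genes called higher and 0.0933% lower. At an unadjusted limma p under 0.05, 8 were higher and 2 lower, 18.9% of the members beside 18.3% of all genes. At 25 °C math-38 was at least 1 log2 unit higher and bath-13 and math-20 were lower, beside 5.25% and 7.16% of all genes. At 15 °C math-38, bath-19 and bath-2 were higher and none was lower, beside 11.5% and 2.79% of all genes. Both math-38 and bath-13 passed the filter only through the libraries where they are high, so their places in these counts give no support. Of the genes past that size at 15 °C 80.4% were higher, and 64% after median centring and 65.8% after quantile normalization. math-20 had 9.67 and 12.99 FPKM at 25 and 15 °C in math-33, against 20.96 and 16.3 FPKM in N2, and was 2.17 times lower at 25 °C (1.82 to 2.59). bath-2 had 25.7 and 28.0 FPKM in math-33, against 30.03 and 13.4 FPKM in N2, so its sign differed between the temperatures. bath-19 had 6.84 and 4.07 FPKM in math-33, against 5.92 and 1.18 FPKM in N2, where its level at 15 °C was the lowest of the 10.

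Other bath genes differed from N2 in math-33 in 1 direction at both temperatures without passing the threshold, some higher and some lower. bath-29 had 24.6 and 11.3 FPKM at 25 and 15 °C in math-33, against 13.2 and 7.03 FPKM in N2. bath-15 had 18.9 and 12.8 FPKM in math-33, against 11.4 and 7.85 FPKM in N2. bath-39 had 5.38 and 4.09 FPKM in math-33, against 3.28 and 3.52 FPKM in N2. Lower instead was bath-1, with 2.30 and 1.36 FPKM in math-33 against 4.67 and 1.99 FPKM in N2, 2.03 times lower at 25 °C (1.30 to 3.25). bath-21 had 1.11 and 0.54 FPKM in math-33, against 2.05 and 0.818 FPKM in N2. bath-20 had 0.593 and 0.735 FPKM in math-33, against 1.29 and 0.816 FPKM in N2. At both temperatures the intervals of bath-21 and bath-20 include no difference. bath-20 reached 1 FPKM only in N2 and daf-16;daf-2 at 25 °C, so it passed the filter through libraries with math-33 intact, where it is high. Over both temperatures bath-29 differed by 0.73 and bath-15 by 0.66 (limma adjusted p of 0.14 and 0.176). The median of the 28 bath genes was 0.36 in this contrast and that of the 25 math genes was -0.04, against 0.06 for all genes. After median centring these 2 family medians were 0.25 and -0.15. The centred median of all genes was 0.04 at 25 °C and -0.15 at 15 °C. The summed oocyte level was 6745 and 3594 FPKM in math-33, against 3546 and 1492 FPKM in N2; its part in these values was not tested.

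The difference between the math-33 effects in the 2 backgrounds was tested as an interaction. It passed for no member and for 0% of all genes in either direction. At an unadjusted limma p under 0.05, 6 members were positive and 2 negative, 15.1% of the members beside 8.64% of all genes.

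DAF-16 dependence was read from daf-2 against daf-16;daf-2. These comparisons share the daf-2 libraries with those of daf-2;math-33 against daf-2, so a low or high daf-2 library moves both. No member passed the limma threshold, beside 0.0311% of all genes called higher and 0.00622% lower. At an unadjusted p under 0.05, 4 were higher and 5 lower, 17% of the members beside 12.2% of all genes. At 25 °C bath-26, math-37, bath-13 and math-1 exceeded daf-16;daf-2 by 1 log2 unit or more in daf-2, and math-14, math-15 and math-10 were lower, beside 7.06% and 5.09% of all genes. Of these, math-1 reached 1 FPKM only in the 2 daf-2 libraries, so its place in the count gives no support. At 15 °C bath-13 was higher and math-15, math-14, math-22 and bath-46 were lower, beside 4.15% and 5.43% of all genes.

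The 3 neighbours math-15, math-14 and math-10 (chromosome II, 1866397 to 1873150, plus strand, 4 exons each) were lower in daf-2 at both temperatures. math-15 had 1.63 and 0.737 FPKM at 25 and 15 °C in daf-2, against 5.32 and 5.65 FPKM in daf-16;daf-2, and was 3.26 (1.97 to 5.36) and 7.66 (4.22 to 17.0) times lower. math-14 had 1.31 and 3.20 FPKM in daf-2, against 7.20 and 9.55 FPKM in daf-16;daf-2, and was 5.49 (3.25 to 9.85) and 2.98 (2.09 to 4.31) times lower. math-10 had 0.139 and 0.921 FPKM in daf-2, against 1.46 and 1.79 FPKM in daf-16;daf-2. N2, where the receptor is intact, was at 1.95 and 1.67 FPKM for math-15, at 6.54 and 4.65 FPKM for math-14 and at 0.897 and 2.07 FPKM for math-10. For math-15 N2 thus lay nearer to daf-2, and for math-14 nearer to daf-16;daf-2 at 25 °C and nearer to daf-2 at 15 °C. The limma differences were -1.60 for math-15 (adjusted p = 0.193) and -1.58 for math-14 (adjusted p = 0.235).

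math-41 had 4.13 and 6.47 FPKM at 25 and 15 °C in daf-2, against 8.93 and 13.2 FPKM in daf-16;daf-2, and was 2.17 (1.76 to 2.68) and 2.04 (1.73 to 2.42) times lower, close to the same at both temperatures (limma difference -0.94, adjusted p = 0.204). math-22 had 30.1 and 21.9 FPKM in daf-2, against 39.5 and 51.4 FPKM in daf-16;daf-2, and its daf-16;daf-2 libraries were the 2 highest of the 10. bath-26 had the largest difference the other way at 25 °C. It had 16.8 and 8.71 FPKM in daf-2, against 4.84 and 3.901 FPKM in daf-16;daf-2, and was 3.48-fold (2.63 to 4.58) and 2.23-fold (1.61 to 3.22) higher (limma difference 1.30, adjusted p = 0.243). bath-7 had 7.52 and 4.32 FPKM in daf-2, against 3.48 and 2.01 FPKM in daf-16;daf-2, and bath-36 had 3.68 and 3.02 FPKM against 2.25 and 2.92 FPKM. math-21 had 0.73 and 0.431 FPKM in daf-2, against 1.28 and 1.58 FPKM in daf-16;daf-2. The family medians depended on temperature and scaling. At 25 °C the math median was -0.23 with 9 of 25 genes above 0, and at 15 °C it was 0.05 with 13 of 25 above 0. The bath median was 0.04 at 25 °C, but -0.05 after median centring and -0.02 after quantile normalization, and 0.22 at 15 °C. Beside these the medians of all genes were 0.000, -0.09 and -0.04 at 25 °C, and 0.02 at 15 °C. The medians of the limma differences over both temperatures were 0.22 for the bath genes and -0.19 for the math genes, against 0.01 for all genes. The summed molting level was 2302 and 2066 FPKM in daf-2, against 3187 and 3648 FPKM in daf-16;daf-2; its part was not tested.

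**Figure D3:**
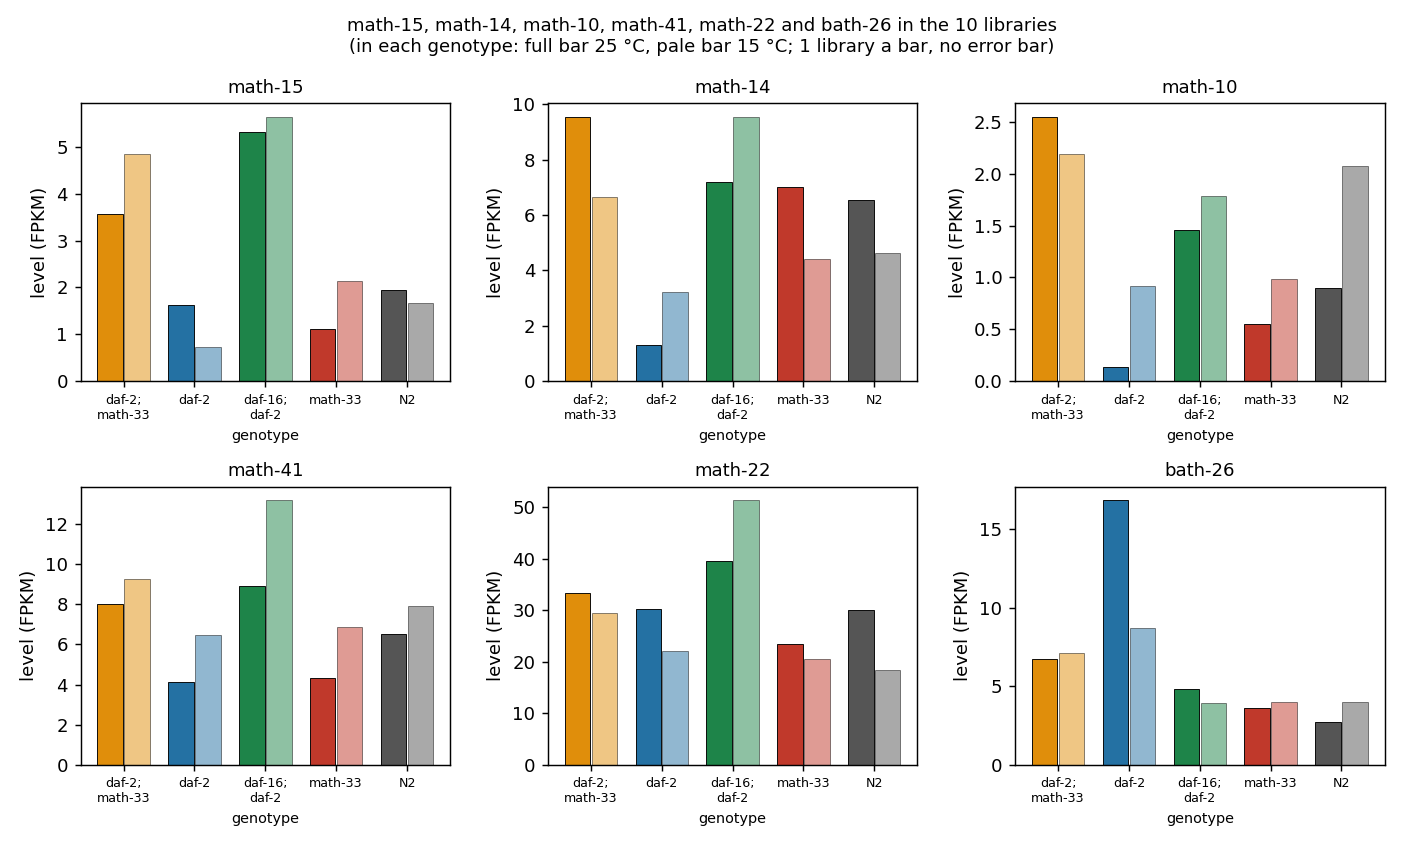
Level (FPKM, axes from 0) of math-15, math-14, math-10, math-41, math-22 and bath-26 in each genotype, full bars at 25 °C and pale bars at 15 °C, with 1 library a bar. The 5 math genes have lower bars for daf-2 than for daf-16;daf-2 at both temperatures, and bath-26 has its highest bar, 16.8 FPKM, in daf-2 at 25 °C.

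Against N2, no member differed in daf-2 by the limma threshold, nor did any gene of the table (0% higher and 0% lower). At an unadjusted p under 0.05, 3 were higher and 4 lower, 13.2% of the members beside 13.6% of all genes. At 25 °C bath-26, math-37 and math-45 exceeded N2 by 1 log2 unit or more in daf-2, and math-14 was lower, beside 9.33% and 9.28% of all genes. At 15 °C bath-19 was higher and none was lower, beside 2.92% and 2.85% of all genes. bath-26 had 16.8 and 8.71 FPKM at 25 and 15 °C in daf-2, against 2.69 and 3.95 FPKM in N2, a fold of 6.27 (4.38 to 9.19) at 25 °C and of 2.20 (1.62 to 3.04) at 15 °C. The limma difference was 1.62 (adjusted p = 0.227), and bath-26 passed the threshold in 1 of 18 alternatives, without the daf-2 library at 15 °C. math-24 had 6.64 and 4.09 FPKM in daf-2, against 3.25 and 2.36 FPKM in N2. math-35 had 6.49 and 5.84 FPKM in daf-2, against 4.42 and 4.42 FPKM in N2. math-32 had 0.829 and 0 FPKM in daf-2, against 2.51 and 0.141 FPKM in N2. bath-27 was lower, with 5.68 and 3.31 FPKM in daf-2 against 10.1 and 3.63 FPKM in N2.

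Several bath genes, bath-29 and bath-30 first among them, were higher at 25 °C than at 15 °C. The limma temperature term called 9 of 53 members higher and none lower, 7 of 28 bath genes and 2 of 25 math genes, which is 17% of the members beside 14.6% of all genes called higher and 4.68% called lower. One of the 9, math-32, passed the filter only through libraries at 25 °C. The difference between the 2 families was not tested. The medians were 0.39 for the bath genes, 0.13 for the math genes and 0.09 for all genes, and 26 of 28 bath genes and 16 of 25 math genes lay above 0. After median centring the bath median was 0.22 with 21 of 28 above 0 and the math median -0.04 with 9 of 25 above 0. Centring moves the other genes too, so these values do not compare with the 0.09 for all genes. Genotype by genotype the centred median of all genes was -0.130 in daf-2;math-33, -0.115 in daf-2, -0.036 in daf-16;daf-2, 0.016 in math-33 and -0.158 in N2. The calls after centring were 4 higher (bath-1, bath-29, bath-30 and math-32) and 2 lower (math-4 and math-41). After quantile normalization they were the same 4 higher and math-41 lower. The sign of the math median and the size of the split of calls thus depend on the scaling. The bath median stayed positive, and more members were called higher than lower, under the 3 scalings.

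bath-29 had the largest difference among the bath genes called. It had 13.7 and 5.52 FPKM at 25 and 15 °C in daf-2;math-33, 12.7 and 5.02 FPKM in daf-2, 9.78 and 4.65 FPKM in daf-16;daf-2, 24.6 and 11.3 FPKM in math-33, and 13.2 and 7.03 FPKM in N2. Within each genotype the level at 25 °C was 1.88-fold (N2, interval 1.47 to 2.42) to 2.53-fold (daf-2, 1.95 to 3.32) that at 15 °C. The limma difference was 1.04 (SE 0.12, adjusted p = 0.00694), and it was called in 18 of 18 alternatives. bath-29 lies at 3350262 to 3358913 on chromosome II, plus strand, close to bath-30 and bath-28.

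bath-30, whose values are given above, was higher at 25 °C in all 5 genotypes, by 1.54-fold (daf-2, interval 1.29 to 1.83) to 2.40-fold (daf-16;daf-2, 1.93 to 3.01). The limma difference was 0.90 (SE 0.11, adjusted p = 0.00779), and it was called in 17 of 18 alternatives, the exception being the fit without a filter. The other calls were smaller or rest on few reads. bath-1 differed by 0.77, bath-27 by 0.66, bath-15 by 0.59, bath-41 by 0.45 and bath-44 by 0.41 (limma adjusted p between 0.0221 and 0.0398). For math-32 the 5 levels at 25 °C were 0.734 to 2.55 FPKM and those at 15 °C 0 to 0.24 FPKM, a difference of 1.13 (limma adjusted p = 0.0213). It reached 1 FPKM in 3 libraries, all at 25 °C, so it passed the filter only through the temperature where it is high, and its call gives no support. math-45 had 1.16 to 3.42 FPKM at 25 °C and 0.15 to 2.07 FPKM at 15 °C, a difference of 1.05 (limma adjusted p = 0.0409).

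Without 1 library the count of 9 ranged from 2 to 8, with 2 calls, bath-29 and bath-30, without either N2 or either daf-16;daf-2 library, 3 without either daf-2;math-33 library, 5 without math-33 at 15 °C, 4 without math-33 at 25 °C and 8 without either daf-2 library. Such a fit leaves 1 genotype with a single library, which adds nothing to the spread.

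Genotype by genotype, at least 1 log2 unit higher at 25 °C were 2 members and lower none in daf-2;math-33 (10.1% and 3.27% of all genes), and 5 and none in daf-2 (11.7% and 3.72%). They were 6 higher and 1 lower, bath-46, in daf-16;daf-2 (10.2% and 4.19%). In math-33 they were 4 and none (6.63% and 6.73%), and in N2 6 and none (13.3% and 3.82%). The higher ones include math-32 (daf-16;daf-2, math-33 and N2), math-44 (daf-2;math-33 and N2) and bath-20 (daf-16;daf-2). These genes passed the filter only through libraries at 25 °C, so their place in the counts gives no support. Of all genes past that size the higher ones made up 75.6% in daf-2;math-33, 75.8% in daf-2, 70.9% in daf-16;daf-2 and 77.7% in N2, but 49.6% in math-33. After median centring these were 59.6%, 55%, 54.8%, 59.2% and 48.8%. After quantile normalization they were 64.3%, 56.2%, 54.3%, 61.4% and 49.9%. The bath medians were 0.20 in daf-2;math-33, 0.34 in daf-2, 0.53 in daf-16;daf-2, 0.20 in math-33 and 0.49 in N2. The corresponding medians of all genes were 0.06, 0.12, 0.13, 0.02 and 0.08. In all 5 genotypes 21 members were higher at 25 °C, 15 bath and 6 math genes, and 1 was lower, beside 22.6% and 11% of all genes. The math genes among them include math-32 and math-44.

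On log2(FPKM + 1), math-37 in daf-2 had the largest difference between temperatures of any member within 1 genotype, 2.58. It had 10.8 and 0.961 FPKM at 25 and 15 °C in daf-2, an 11.2-fold difference (7.13 to 18.5), and 2.64 and 0.38 FPKM in N2, a 6.96-fold difference (3.30 to 19.4). In daf-2;math-33 it had 7.52 and 4.15 FPKM, in daf-16;daf-2 3.26 and 2.44 FPKM, and in math-33 2.40 and 1.44 FPKM. It was higher at 25 °C in all 5 genotypes but missed the threshold (limma difference 1.10, adjusted p = 0.0637), and whether the swing differs between genotypes was not tested. bath-46 had 2.49 and 7.87 FPKM at 25 and 15 °C in daf-16;daf-2 and was 3.17 times lower at 25 °C (2.12 to 4.84). It was also lower at 25 °C in N2, with 2.23 and 4.61 FPKM, and in math-33, with 2.155 and 3.79 FPKM. In daf-2;math-33 it had 4.45 and 5.87 FPKM, and in daf-2 3.45 and 3.05 FPKM. In the last 2 genotypes the interval includes no difference. math-4 had 5.80 and 9.90 FPKM in daf-2;math-33, 5.09 and 10.8 FPKM in daf-2, 6.55 and 8.70 FPKM in math-33 and 6.30 and 10.7 FPKM in N2, but 9.47 and 8.58 FPKM in daf-16;daf-2.

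**Figure D4:**
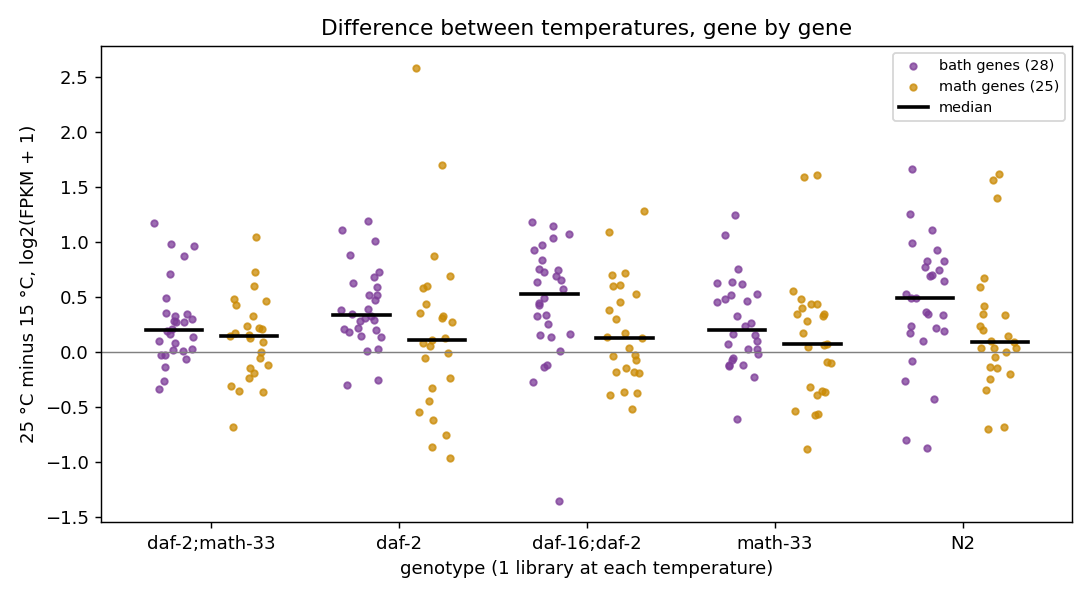
Difference of 25 °C minus 15 °C on log2(FPKM + 1) for each of the 28 bath and 25 math genes past the filter, by genotype, with 1 library at each temperature; points are genes and black lines medians. The bath medians lie between 0.20 and 0.53 and above the math medians in all 5 genotypes.

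The bath genes called higher at 25 °C, other than bath-1, varied across the libraries much as the oocyte list did. These genes were picked by their rise at 25 °C, and the list rises there too, so part of the likeness was fixed in advance. Oocyte genes encode eggshell, yolk-uptake and maternal RNA-binding proteins made as oocytes form, and all 20 listed were called higher at 25 °C by limma. Their summed level was 2927 and 1682 FPKM at 25 and 15 °C in daf-2;math-33, 1910 and 1376 FPKM in daf-2, 2687 and 1003 FPKM in daf-16;daf-2, 6745 and 3594 FPKM in math-33, and 3546 and 1492 FPKM in N2. Over the 10 libraries the log2 level of 8 of the 28 bath genes and of none of the 25 math genes correlated with the log2 sum at r of at least 0.9, beside 6.31% of all genes outside the list. The 8 were bath-30 (r = 0.98), bath-15 (0.97), bath-41 (0.96), bath-29 (0.92), bath-27 (0.91), bath-42 (0.91), bath-44 (0.91) and bath-43 (0.90). The median r was 0.71 for the bath genes, -0.10 for the math genes and 0.10 for all genes. The likeness was not particular to this list. With the summed sperm list these medians were 0.65, -0.08 and 0.10, and with the germline list 0.61, -0.25 and 0.05. Over the 10 libraries bath-42 (r = 0.94), bath-27 (0.94) and bath-43 (0.92) lay closer to the sperm list than to the oocyte list. bath-30, bath-15, bath-41, bath-29 and bath-44 lay closer to the oocyte list. Without the 2 libraries farthest from the median of the sum, math-33 at 25 °C and daf-16;daf-2 at 15 °C, 5 bath genes had r of at least 0.9, beside 3.24% of all genes. These were bath-30 at 0.96, bath-42 at 0.94, bath-15 and bath-41 at 0.92 and bath-27 at 0.91, while bath-43 was at 0.89, bath-29 at 0.80 and bath-44 at 0.77. For the sperm sum the 2 farthest libraries were math-33 at 25 °C and daf-2 at 15 °C. Without them 0 bath genes had r of at least 0.9 with it, against 5 over the 10 libraries. bath-42 and bath-27 were then at 0.885 and bath-43 at 0.846, below the values just given for the oocyte list. The points share libraries and stage, and the oocyte sum moves with the sperm sum as well (r = 0.91). The relation was computed after the values had been seen and is a description without a test.

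**Figure D5:**
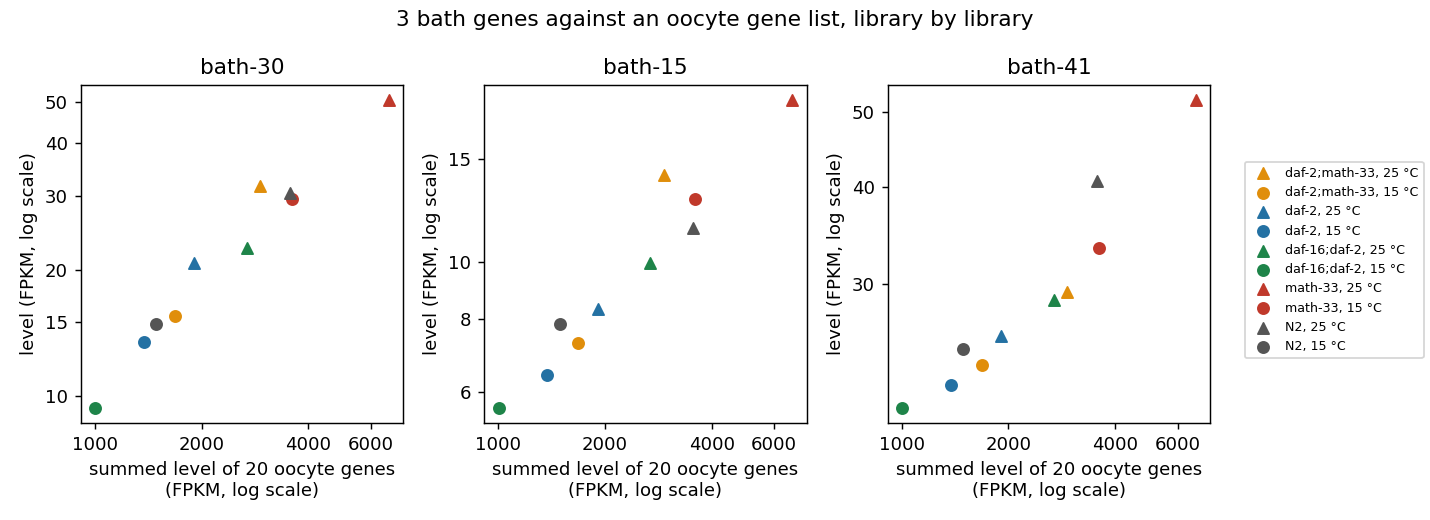
Level of bath-30, bath-15 and bath-41 (vertical axes, FPKM, log scale) against the summed level of 20 oocyte genes (horizontal axes, FPKM, log scale), with 1 point a library, triangles at 25 °C and circles at 15 °C, coloured by genotype. In each panel math-33 at 25 °C, with 6745 FPKM of the list, is at the top right and daf-16;daf-2 at 15 °C, with 1003 FPKM, at the bottom left.

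The pathway in which BATH proteins act was read from 18 genes. All of this CUL-3 list, which holds the scaffold, the ring protein, the NED-8 conjugation enzymes, signalosome subunits, mel-26 and its katanin substrate, passed the filter. None was called in any genotype contrast, and mei-1 and mei-2, the katanin subunits, were called higher at 25 °C, 2 of 18 beside 14.6% of all genes. mei-2 had 23.4 and 12.4 FPKM at 25 and 15 °C in daf-2;math-33, 21.1 and 11.9 FPKM in daf-2, 21.4 and 9.83 FPKM in daf-16;daf-2, 70.3 and 24.1 FPKM in math-33, and 32.6 and 15.2 FPKM in N2 (limma difference 1.05, adjusted p = 0.00747). cul-3 ranged from 73.2 to 105 FPKM, with a mean of 88.1 FPKM, above the mean of every member. mel-26 ranged from 28.5 to 72.2 FPKM, with a mean of 42.3 FPKM.

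The same counts were made for other multigene families. For math-33 loss they stand beside 3.37% of all genes called higher and 0.578% lower. For 25 °C against 15 °C they stand beside 14.6% higher and 4.68% lower. Of 118 fbxa genes past the filter, which encode F-box proteins of another ubiquitin ligase, 1 was called higher and 3 lower for math-33 loss, and 17 higher and 1 lower at 25 °C. Of 17 btb genes, which carry the BTB domain without a MATH domain, none was called for math-33 loss and 5 were higher at 25 °C. The differences between these families and the math and bath genes were not tested.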

How the data were processed

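Polyadenylated RNA from whole worms was sequenced paired-end as stranded libraries, per the labels' protocols, with an RNA integrity number above 8.0. The authors deposited FPKM values for 47467 transcripts in 10 libraries, and per the submitters' processing notes STAR, HOMER, edgeR and build ce10 were used. Roles, versions and the treatment of reads shared by paralogs are not stated in those sources. Transcripts with no gene name (1104, holding 1.72 to 1.97% of the FPKM) were left out. Groups follow the labelled genotype and temperature, with 1 library each; no replicate numbers pair the samples.

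From there, the table was reduced to 1 transcript per symbol and genes that reached 1 FPKM in at least 2 libraries entered the tests. Depth was recovered from the steps between low values in transcripts of 300 to 1500 bases, 100.0% of which were whole multiples. Folds between 2 libraries carry exact 95% intervals on recovered pairs, and differences were counted at 1 log2 unit with a pseudocount of 1. limma 3.58.1 (R 4.3.3) with a mean-variance trend was fitted to all 16085 genes and tested on simulated data; p-values were adjusted by Benjamini-Hochberg over all genes, at 0.05. Python 3.11.15, pandas 2.3.3, numpy 2.4.6 and scipy 1.17.1 did the rest.

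Members given with values are those with a mean of at least 10 FPKM, those called in any limma contrast, up to 5 in each direction with the largest difference at 25 °C and the same sign at 15 °C in each of 4 genotype comparisons, and the 5 with the largest temperature difference of 1 sign in all genotypes. bath-3, bath-19, bath-28, bath-46 and math-4 and the genes of the neighbouring pairs and silent run were added after their values were seen. The members, the lists (sperm, oocyte, germline, molting, intestine, neuron and CUL-3 genes, fbxa and btb families) and the tests were chosen with earlier results of these data known. Alternatives were another pseudocount, filter, scaling, transcript choice, minimum length, no trend, and each library left out.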

Additional observations from a re-analysis of the deposited data

Results flagged for a closer look

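For 7 members, the difference with loss of math-33 had one sign in daf-2 and the other sign with an intact receptor, at both temperatures. Only for math-20 did every counting interval exclude no difference. Each of the others had an interval that included it, so for these opposite movement is not shown. For bath-36 and bath-5 this held in the daf-2 background at both temperatures. At 15 °C the fold there was 0.98 for bath-44 (0.855 to 1.12) and 0.974 for bath-5 (0.756 to 1.24). The change in daf-2 minus the change with an intact receptor, as a mean over the 2 temperatures on the log2(FPKM + 1) scale, was 1.65 for math-10, 1.01 for math-20 and 0.98 for math-41, and -0.91 for bath-26, -0.66 for bath-44, -0.60 for bath-36 and -0.43 for bath-5. The 3 math genes were higher in daf-2;math-33 than in daf-2 and lower in math-33 than in N2, and the 4 bath genes were the reverse. math-10 had 2.55 and 2.19 FPKM at 25 and 15 °C in daf-2;math-33 against 0.139 and 0.921 FPKM in daf-2, and 0.554 and 0.986 FPKM in math-33 against 0.897 and 2.07 FPKM in N2. math-20 had 20.04 and 18.3 FPKM in daf-2;math-33 against 14.7 and 15.3 FPKM in daf-2, and 9.67 and 12.99 FPKM in math-33 against 20.96 and 16.3 FPKM in N2. bath-44 had 30.7 and 23.7 FPKM in daf-2;math-33 against 35.0 and 24.2 FPKM in daf-2, and 45.1 and 37.99 FPKM in math-33 against 33.6 and 23.02 FPKM in N2. In limma the interaction passed the threshold for none of them, with adjusted p of 0.536 for math-10, 0.545 for math-20, math-41 and bath-44, and 0.606 to 0.679 for the rest. The members were picked out by these signs, so the signs themselves are a description.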

How the results depend on the processing

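The limma calls for math-33 loss (3 members) became 0 without a filter, which tests more genes, 1 after quantile normalization and 0 to 2 when 1 library was left out. Those for temperature (9 members) became 1, 5 and 2 to 8 under the same changes. Those for daf-2 against N2 (0) ranged from 0 to 1 when 1 library was left out, and the other 4 contrasts kept 0 calls in all alternatives. Members at 1 log2 unit in either direction were also counted under other settings. With a pseudocount of 0.1 they were, at 25 and 15 °C, 13 and 11 (daf-2;math-33 against daf-2) and 8 and 10 (math-33 against N2). They were 11 and 16 (daf-2 against daf-16;daf-2) and 11 and 7 (daf-2 against N2). Between temperatures they were 5 in daf-2;math-33, 11 in daf-2, 15 in daf-16;daf-2 and 13 in N2. With a filter of 5 FPKM they were 3 and 2 (daf-2;math-33 against daf-2), 1 (math-33 against N2 at 25 °C) and 4 (daf-2 over daf-16;daf-2 at 25 °C), and between temperatures 1 in daf-2;math-33, 3 in daf-16;daf-2 and 2 in math-33. Median centring gave 0 between temperatures in daf-2;math-33 and 3 in daf-16;daf-2, and quantile normalization 1 and 4. The cause was not tested. No result reversed its sign while called. Repeats of the calls of single members lost the call 107 times. No paired analysis was possible because the labels give no replicate numbers and each group has 1 library. Weakly expressed members rest on few reads: math-1, math-10, math-28, math-32, math-38 and math-45 had libraries with 3 or fewer pairs.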
